A study of Homo sapiens with 6 samples.

Results

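The genes described here are the ligands and receptors of the tumour necrosis factor (TNF) superfamilies, measured in CaSki cells with and without recombinant TGF-β1. Members were taken by gene symbol from probe sets annotated with a single gene: every TNFRSF or TNFSF symbol followed by a digit, and TNF, LTA, LTB, LTBR, FAS, FASLG, CD40, CD40LG, CD27, CD70, EDA, EDAR, EDA2R and NGFR. This gave 46 of the 19775 genes on the arrays, of which 27 were receptors, 16 were ligands and 3 were non-coding transcripts that the symbol rule also takes in (TNFRSF14-AS1, TNFRSF10A-DT and TNFRSF10B-AS1). CD40LG, TNFRSF6B and TNFSF12 were not analysed here at the gene level. CaSki is an established human line from a cervical squamous cell carcinoma that carries integrated papillomavirus DNA. The 3 treated arrays came from cells given 2 ng/mL recombinant TGF-β1 and the 3 untreated arrays from cells in medium without it. How long the cells were treated is not stated in the labels. All results come from this 1 cell line, and nothing in the labels says that the 3 arrays of a group came from separate cultures. A p-value here therefore speaks only of the spread among these arrays, which could be technical.

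TNF family ligands are mostly membrane-bound trimers that can be shed, and they bind receptors with cysteine-rich repeats in their extracellular part. Some receptors carry a cytoplasmic death domain, which recruits adaptors such as FADD and TRADD and can lead to caspase activation, while others bind TRAF adaptors directly and signal to NF-κB and to stress kinases. Decoy receptors bind ligand without transmitting a death signal. In squamous epithelium the family takes part in inflammation, in the control of cell death and in the formation of skin appendages, and many of its ligands are made mainly by lymphocytes and myeloid cells.

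Values are log2 signals of Affymetrix probe sets, 1 probe set per gene (the one with the highest mean over the 6 arrays). A probe set's signal depends on its probes as well as on the amount of transcript, so signals are compared between arrays for 1 probe set and not between genes. The median probe set had a mean signal of 4.16, and a member below it is described as dim. Of 12 listed epithelial markers, KRT6A, KRT17 and TP63 were not analysed here. The 9 measured ones, among them KRT5, KRT18, KRT19 and CDH1, had mean signals between 7.63 and 13.6. They describe epithelial cells in general, and a squamous type was not tested. Of these 9, KRT14 at 0.77 and KRT8 at 0.60 were called higher with TGF-β1, and the epithelial adhesion gene EPCAM at -0.70 was called lower (limma, log2). Of 11 measured immune cell markers 0 were called (limma, 3 at an unadjusted p below 0.05), and their signals lay between 2.61 and 5.60, with the leukocyte antigen gene PTPRC at 2.66. The mean over the immune list was 3.95 to 4.01 on untreated and 3.91 to 4.09 on treated arrays. Both arrays numbered 1 stood apart in the 3′ over 5′ signal of GAPDH and ACTB. It was 1.19 and 1.15 (log2), against 0.690 to 0.863 on the other 4. Whether this reflects RNA quality was not tested. Calls of members and signalling genes that change without these 2 arrays are given with and without them. Calls of cell type markers are given on all arrays only.

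With TGF-β1, 1 of the 46 members rose and 0 fell (limma, Benjamini-Hochberg adjusted p below 0.05 over all genes; at an unadjusted p below 0.05, 3 were higher and 3 lower, and 23.2% of all genes passed that mark). Over all 19775 genes 8.50% were called, 4.03% as higher and 4.47% as lower. The 1 member that rose was TNFRSF19, also known as TROY, an orphan receptor that binds TRAF adaptors and is known from hair follicles, neural tissue and epithelial stem cells. Earlier results of these same arrays had already singled it out, so its rise here is no independent observation. The median difference was 0.0048 over the members and -0.0027 over all genes (log2), and the median size of the difference without regard to sign was 0.083 and 0.12. In 42 of the 46 members the 95% interval of the difference, not adjusted for the number of genes, lay within a 1.5-fold change in either direction, and over all genes this held for 89.9%. The 4 whose intervals reached further were TNFRSF19, TNFRSF9, TNFRSF13B and TNFRSF14. Without both arrays numbered 1 the count of called members was 0 (627 genes were called in all, 3.17%), and without untreated array 1 alone it was 2, with TNFRSF9 as the second.

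**Figure D1:**
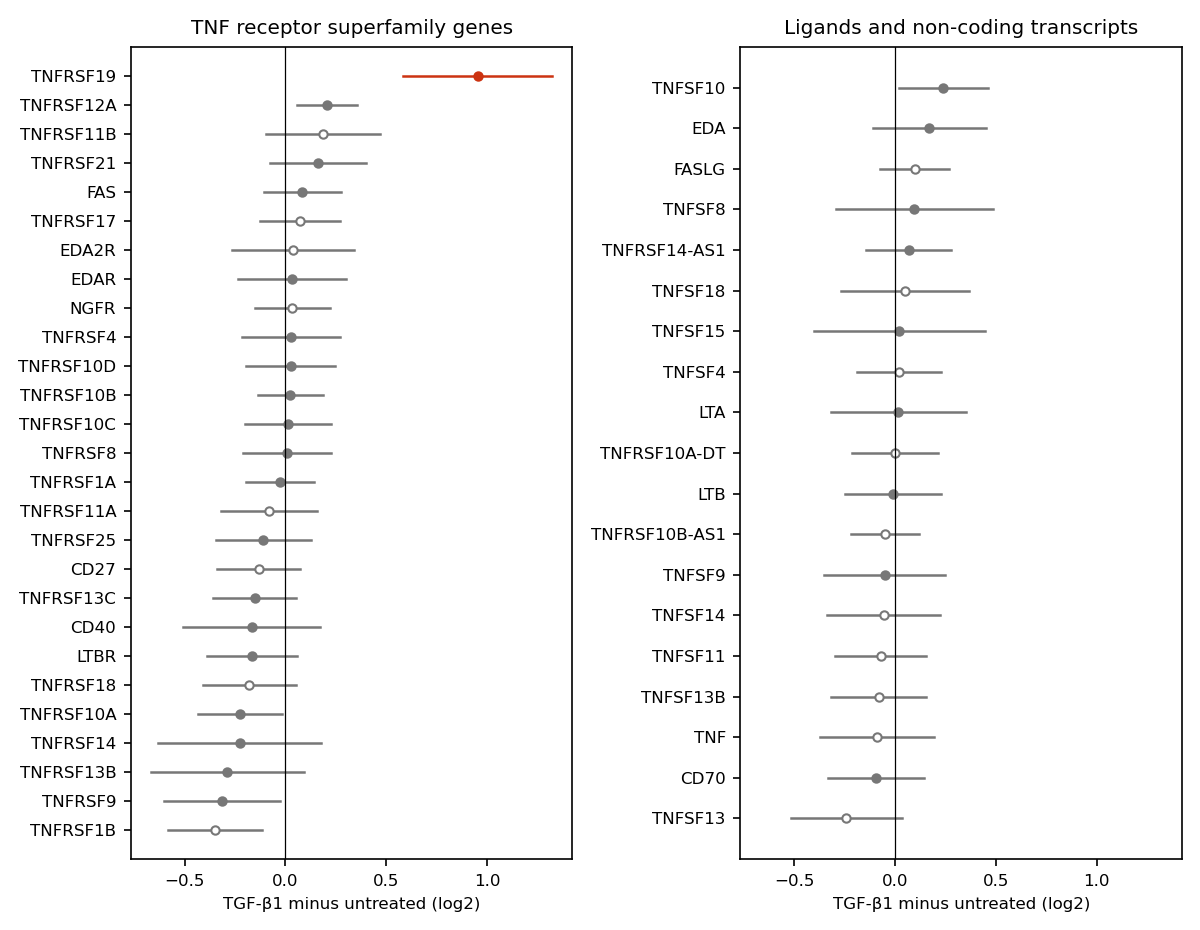
Difference between TGF-β1-treated and untreated cells (log2, horizontal axis) for the 27 receptors at left and the 16 ligands with 3 non-coding transcripts at right; points are differences of 3 against 3 arrays, bars are 95% intervals, open points are dim probe sets and red marks the called gene. TNFRSF19 at 0.95 lies apart from the other members, whose differences run from -0.35 (TNFRSF1B) to 0.24 (TNFSF10).

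**Figure D2:**
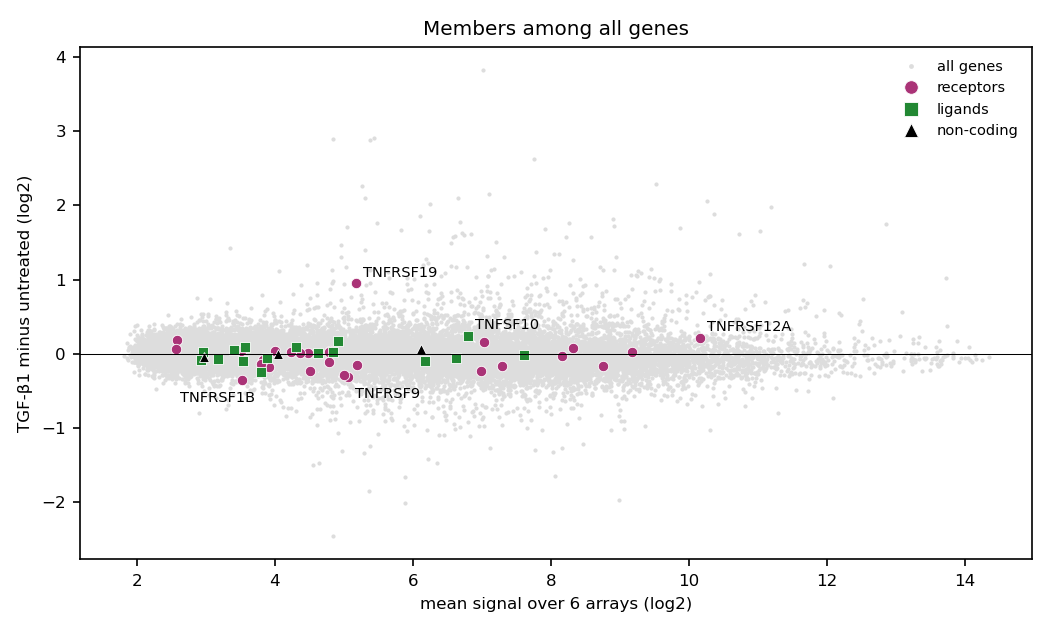
Difference with TGF-β1 (log2, vertical axis) against the mean signal over 6 arrays (log2, horizontal axis) for all 19775 genes in grey and for receptors, ligands and non-coding members in colour. Apart from TNFRSF19 the members lie close to 0 at every signal, with TNFRSF12A at a mean signal of 10.2 and a difference of 0.21.

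TNFRSF19 read 4.93, 4.34 and 4.85 (log2) on untreated arrays 1 to 3 and 5.71, 5.46 and 5.81 on treated arrays 1 to 3. All treated arrays lay above all untreated arrays, and array 2 was the lowest in each group. The means were 4.71 ± 0.319 (SD, n = 3) and 5.66 ± 0.178 (SD, n = 3), a difference of 0.95 ± 0.16 (SE, limma adjusted p = 0.0108, 95% interval 0.58 to 1.32), or 1.94-fold. The call held without each single array, with differences between 0.77 and 1.07 and adjusted p between 0.0164 and 0.0425. Without both arrays numbered 1 the difference was 1.04 with an adjusted p of 0.0711, on 2 arrays a group. In cells measured in bulk, more cells that make a transcript and more transcript per cell cannot be told apart.

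The 3 probe sets of TNFRSF19 did not move together. The values above belong to 227812_at. The next, 224090_s_at, read 4.77, 5.16 and 4.74 on the untreated and 4.92, 4.88 and 4.59 on the treated arrays, with overlapping groups and a difference of -0.09 ± 0.14 (SE, limma over all probe sets, adjusted p = 0.79). The other, 223827_at, was dim at a mean of 2.86 and differed by 0.01 ± 0.10 (SE, adjusted p = 0.98). So 1 of 3 probe sets carried the rise, and when the 3 were averaged the difference was 0.29 (adjusted p = 0.0323). Tested singly among 54613 probe sets, of which 3.24% were called, 227812_at was the only one called among the 96 single-symbol and 10 several-symbol probe sets of the family (difference 0.95, adjusted p = 0.0165). Which transcripts each probe set detects was not tested.

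**Figure D3:**
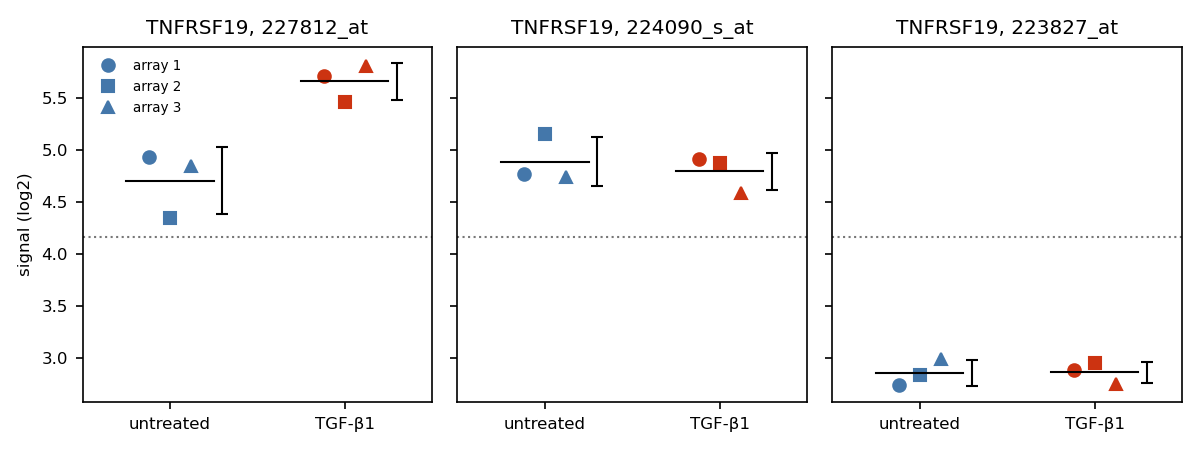
Signal (log2, vertical axis) of the 3 TNFRSF19 probe sets on each array, with 1 symbol per array number, group means as lines, SD (n = 3) as error bars and the median probe set as a dotted line at 4.16. The groups separate for 227812_at, at 4.34 to 4.93 against 5.46 to 5.81, and overlap for the other probe sets.

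RefSeq places TNFRSF19 on chromosome 13 and the promoter table (build GRCh38.p14) lists a pair of start sites for it, both on the plus strand. The 250 bases before each are shown because TNFRSF19 is the one member that rose and its probe sets disagree. Capitals mark CAGAC, the core letters bound by SMAD3 and SMAD4, the DNA-binding transducers of TGF-β signalling, searched on both strands (CAGAC or GTCTG). The first window is chr13:23570162-23570411 and the second is chr13:23579110-23579359.
TNFRSF19 first start: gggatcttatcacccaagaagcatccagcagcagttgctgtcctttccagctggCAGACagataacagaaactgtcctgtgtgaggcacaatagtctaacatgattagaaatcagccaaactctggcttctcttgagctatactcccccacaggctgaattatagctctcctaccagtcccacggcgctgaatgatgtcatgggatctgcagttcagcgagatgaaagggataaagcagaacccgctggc
TNFRSF19 second start: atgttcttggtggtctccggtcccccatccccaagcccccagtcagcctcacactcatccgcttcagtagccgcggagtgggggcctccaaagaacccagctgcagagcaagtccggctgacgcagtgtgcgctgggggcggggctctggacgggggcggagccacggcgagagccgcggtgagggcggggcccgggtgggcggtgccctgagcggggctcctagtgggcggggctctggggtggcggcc
The first window held 1 match, beginning at position -196 from the start, and the second held 0. Of 35116 windows of this length in the table, 38% held at least 1 match, so a match in 1 of these windows is common. The palindrome GTCTAGAC (0.182% of windows), the AP-1 letters TGANTCA (6.57%) and TATAAA (10.7%) had 0 matches in either window, where N is any base. GTCTAGAC does not overlap CAGAC, since neither strand of the palindrome holds those 5 letters. G and C made up 49.6% of the first and 72.4% of the second window, against a median of 58% over all windows. The windows describe the gene's annotated starts, and no probe set is assigned to either.

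Among the 8 receptors with a death domain 0 were called (limma, with 1 lower at an unadjusted p below 0.05). Of the 8, 7 were above the median signal and all 8 intervals lay within 1.5-fold. Over all genes 8.50% were called, 23.2% had an unadjusted p below 0.05 and 89.9% had an interval within 1.5-fold. Whether these 8 receptors differ from those shares was not tested. FAS, the receptor for Fas ligand, read 8.20, 8.33 and 8.33 on the untreated and 8.49, 8.27 and 8.34 on the treated arrays. Its groups overlapped, at a difference of 0.08 ± 0.08 (SE, adjusted p = 0.61). TNFRSF1A, the main receptor for soluble TNF, read 8.25, 8.17 and 8.11 against 8.21, 8.10 and 8.15. It differed by -0.03, with a 95% interval from -0.20 to 0.14. Neither interval reached a change of 1.5-fold.

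The TRAIL system gave a pair of receptors with different values. TNFRSF10A, a death receptor for TRAIL, read 7.11, 6.98 and 7.22 on untreated and 6.96, 6.76 and 6.91 on treated arrays. Every treated array lay below every untreated one, by 0.020 at the nearest, and the difference of -0.23 ± 0.09 (SE) did not pass (limma adjusted p = 0.185). A second TNFRSF10A probe set differed by -0.29 and another by -0.14 (adjusted p = 0.11 and 0.69 among all probe sets). TNFRSF10B, the other death receptor for TRAIL, read 9.10, 9.23 and 9.18 against 9.16, 9.22 and 9.20. Its groups overlapped and the difference was 0.02, with a 95% interval from -0.14 to 0.19. Another TNFRSF10B probe set, 209294_x_at at a mean of 6.02, was higher on every treated than on every untreated array. It differed by 0.25 without passing (adjusted p = 0.24 among all probe sets by limma). The remaining ones, 210405_x_at and the dim 1556645_s_at, differed by 0.09 and -0.03. Whether the 2 receptors differ from each other in response was not tested. The decoy receptors TNFRSF10C and TNFRSF10D differed by 0.01 and 0.03. The other single-symbol TNFRSF10C probe sets differed by 0.13, -0.13 and 0.02. Of those annotated also with LOC254896, the dim 210483_at was lower on every treated than on every untreated array. It differed by -0.34 without passing (limma adjusted p = 0.086 among all probe sets), and the dim 210484_s_at differed by -0.14.

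TNFSF10, which encodes the ligand TRAIL, had the highest difference among the ligands. It read 6.62, 6.73 and 6.70 on untreated and 6.74, 6.94 and 7.07 on treated arrays. The groups did not overlap, although treated array 1 lay within 0.016 of the highest untreated array. The difference was 0.24 ± 0.10 (SE, limma adjusted p = 0.184). Its 3 probe sets were all above the median signal and all higher on every treated than on every untreated array, by 0.21 to 0.39 on average, and none passed when probe sets were tested singly. The smallest adjusted p was 0.118, for 202688_at, which read 6.38, 6.59 and 6.43 against 6.64, 6.92 and 7.01. Without single arrays the gene-level difference lay between 0.16 and 0.33 and did not pass (adjusted p at least 0.0634).

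TNFRSF12A, also called FN14, the receptor for TWEAK, had a mean signal of 10.2. It read 10.07, 10.07 and 10.04 on untreated and 10.25, 10.28 and 10.28 on treated arrays. The groups were tight and well apart, with SDs of 0.016 and 0.017. The difference of 0.21 ± 0.06 (SE), 1.15-fold, did not pass (adjusted p = 0.0939). It passed with a trended robust variance (adjusted p = 0.00824) and when only genes above the median signal were tested (adjusted p = 0.0401), so the call for this small difference depends on the variance model and on the genes tested. Its ligand gene TNFSF12 had only probe sets annotated with more than 1 symbol. Of these 205611_at, annotated with TNFSF12 and the TNFSF12-TNFSF13 readthrough transcript, differed by -0.24 at a mean of 4.24 (adjusted p = 0.51 among all probe sets). The dim 229326_at, annotated also with TNFSF13, differed by 0.01 at a mean of 3.38 (adjusted p = 0.98).

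The receptors for TNF, lymphotoxin and CD40 ligand showed no called change. TNFRSF1B, the second TNF receptor, which lacks a death domain, was dim. It read 3.57, 3.83 and 3.72 on untreated and 3.51, 3.34 and 3.22 on treated arrays. The groups did not overlap, and the difference of -0.35 ± 0.10 (SE), the lowest among the members, did not pass (limma adjusted p = 0.0769). LTBR, the lymphotoxin beta receptor, read 7.48, 7.31 and 7.33 against 7.02, 7.29 and 7.29. Its groups were separated by 0.011 only, and treated array 1 was the lowest of the 6. The difference was -0.17 (adjusted p = 0.36). It was -0.077 without treated array 1 and -0.024 without both arrays numbered 1. The other LTBR probe sets went in both directions: 243400_x_at differed by -0.17, 232819_s_at by 0.06 and the dim 1559458_at, at a mean of 3.42, by 0.29. CD40, an activator of NF-κB on antigen-presenting and epithelial cells, read 8.61, 8.99 and 8.91 against 8.37, 8.79 and 8.85. Array 1 was the lowest in both groups, as were these arrays on the next CD40 probe sets (205153_s_at and 215346_at). The remaining one, 222292_at, read 5.13, 4.58 and 4.76 against 4.86, 4.48 and 4.86, with array 1 the highest of the untreated. The difference of -0.17 ± 0.15 (SE, adjusted p = 0.55) stayed between -0.28 and -0.02 whichever array was removed. Whether the CD40 values relate to the 3′ over 5′ signal of the arrays was not tested.

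**Figure D4:**
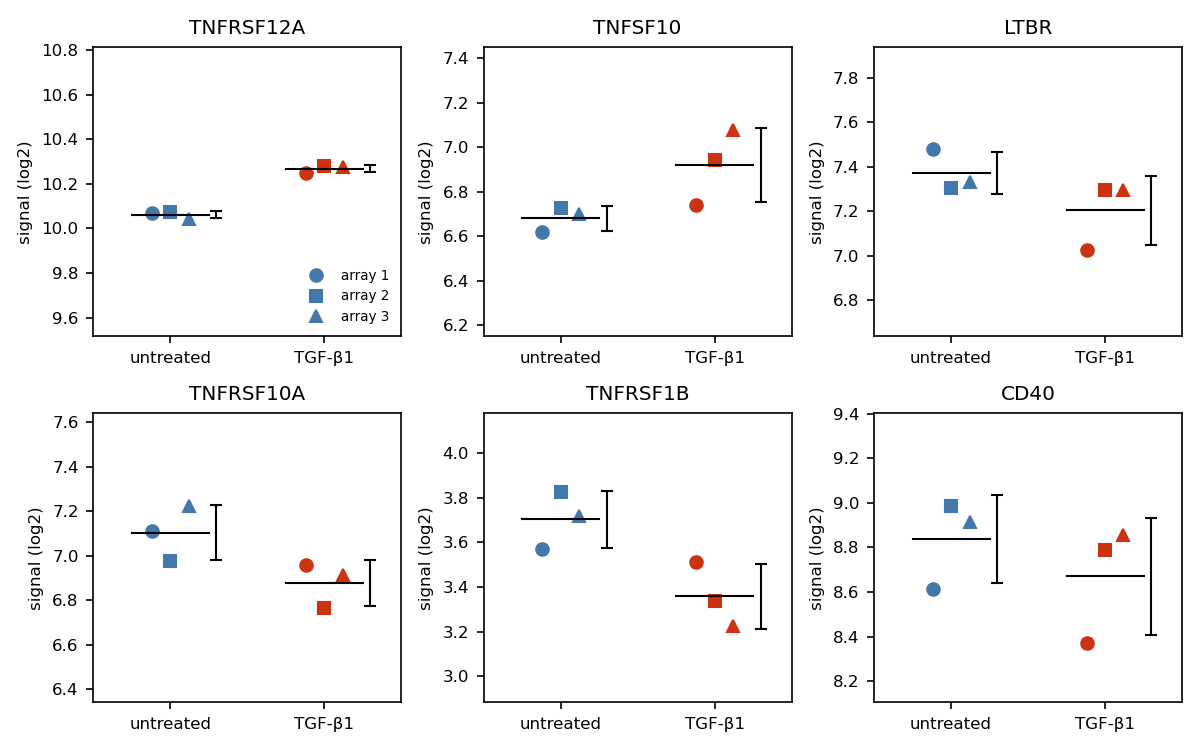
Signal (log2, vertical axis, 1.3 units tall in each panel) on the 3 untreated and 3 treated arrays for TNFRSF12A, TNFSF10, LTBR, TNFRSF10A, TNFRSF1B and CD40, with group means as lines and SD (n = 3) as error bars. The groups do not overlap in the first 5 and overlap in CD40, where array 1 is lowest in both groups; none of the 6 was called.

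In all, 6 of the 46 members had groups that did not overlap: TNFRSF19, TNFRSF12A and TNFSF10 were higher, and TNFRSF10A, LTBR and TNFRSF1B lower. Over all genes 29.2% did not overlap, 12.9% higher and 16.3% lower, so the members' count of 6 is below that background share. TNFRSF9, also known as 4-1BB, a costimulatory receptor, read 4.94, 5.28 and 5.44 on untreated and 4.84, 4.91 and 4.98 on treated arrays. Its groups overlapped through untreated array 1. The difference was -0.31 (adjusted p = 0.18). It was called only without that array, at -0.45 (adjusted p = 0.0422), and without both arrays numbered 1 it was -0.42 (adjusted p = 0.0859). Its second bright probe set differed by -0.14. TNFRSF21, known as DR6, a death domain receptor, read 6.83, 7.02 and 6.99 against 6.91, 7.20 and 7.22. The groups overlapped and the difference of 0.16 did not pass (adjusted p = 0.40). It was 0.11 without untreated array 1 and 0.26 without treated array 1 (adjusted p = 0.66 and 0.126).

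The ligands of the family were 8 above and 8 below the median signal, and 0 of 16 were called (limma; 1 at an unadjusted p below 0.05, TNFSF10). Their median difference was 0.0032, and all 16 intervals lay within 1.5-fold. Of all genes, 8.50% were called, 23.2% passed the unadjusted mark and 89.9% had an interval within 1.5-fold. Whether the 16 ligands differ from those shares was not tested. LTB, which forms the membrane lymphotoxin heterotrimer with LTA, had a mean signal of 7.61. It read 7.49, 7.76 and 7.59 on untreated and 7.45, 7.63 and 7.74 on treated arrays, with overlapping groups and a difference of -0.01 (95% interval -0.25 to 0.23). The costimulatory ligand genes TNFSF9 (4-1BB ligand) and CD70 (ligand of CD27), at means of 6.63 and 6.17, differed by -0.05 and -0.09. EDA, the ectodysplasin of skin appendage formation, differed by 0.17 at a mean of 4.91, and its receptors EDAR and EDA2R differed by 0.03 and 0.04. TNFSF15 (the ligand of TNFRSF25), LTA and TNFSF8 (CD30 ligand) lay just above the median signal and differed by 0.02, 0.02 and 0.10.

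The 8 dim ligand genes were TNFSF14 (LIGHT), TNFSF13 (APRIL), FASLG, TNF, TNFSF18 (GITR ligand), TNFSF11 (RANKL), TNFSF4 (OX40 ligand) and TNFSF13B (BAFF), with mean signals between 2.92 and 3.89. TNF itself read 3.55, 3.63 and 3.60 on untreated and 3.55, 3.23 and 3.73 on treated arrays, with overlapping groups. FASLG read 3.50, 3.53 and 3.53 against 3.64, 3.52 and 3.70. These signals lay in the range of the immune markers above, and no detection call was available, so a dim signal shows neither presence nor absence of the transcript. TNFSF13 had the lowest difference among the ligands, -0.24 (adjusted p = 0.28). Brighter probe sets annotated with TNFSF13 and the TNFSF12-TNFSF13 readthrough did not share it. At means of 4.80, 4.32 and 4.15, 211495_x_at, 209499_x_at and 209500_x_at differed by 0.19, -0.05 and -0.03 without passing.

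The remaining receptors had small differences in both directions. The BAFF and APRIL receptors TNFRSF13B (TACI), TNFRSF13C (BAFF receptor) and TNFRSF17 (BCMA) differed by -0.29, -0.15 and 0.07, the last at a dim mean of 2.56. TNFRSF13B read 5.04, 5.41 and 5.02 on untreated and 4.52, 5.06 and 5.02 on treated arrays, and treated array 1 was the lowest of the 6. TNFRSF14 (HVEM), the receptor for LIGHT, differed by -0.23, with untreated values spread from 4.23 to 4.98. TNFRSF18 (GITR) differed by -0.18, CD27 by -0.13, TNFRSF25 (DR3) by -0.11 and TNFRSF11A (RANK) by -0.08. TNFRSF4 (OX40), TNFRSF8 (CD30) and NGFR, the low-affinity neurotrophin receptor, differed by 0.03, 0.01 and 0.03. The secreted decoy receptor TNFRSF11B (osteoprotegerin) was dim at 2.59 and differed by 0.19. The non-coding transcripts TNFRSF14-AS1, TNFRSF10A-DT and TNFRSF10B-AS1 differed by 0.07, 0.00 and -0.05.

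Of the 26 members with more than 1 probe set, 13 had at least 2 above the median signal. In 8 of these the bright probe sets differed in the same direction: CD40, TNFRSF10A and TNFRSF9 lower, and TNFRSF10B, TNFRSF10C, TNFRSF14-AS1, TNFRSF21 and TNFSF10 higher. In 5, FAS, LTB, LTBR, TNFRSF19 and TNFRSF25, they differed in both directions. For TNFRSF19 the spread between them was the widest, from -0.09 to 0.95, and for FAS, for example, it was from -0.06 to 0.08.

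Downstream components of TNF receptors were described from a list of adaptors, kinases, caspases, ubiquitin ligases, deubiquitinases, NF-κB subunits and inhibitors, and shedding proteases. It also held other genes, such as BID and TRAP1, and of its 59 genes 55 were measured. Of these 7 fell, 1 rose and 47 did not pass, 14.5% called against 8.50% over all genes, and the median difference was -0.01. Of the 55, 52 lay above the median signal, and 12% of all genes above it were called. In 19 of the 55 the groups did not overlap, against 5772 of all 19775 genes (29.2%). Among genes above the median signal, where most of the list lay, 4889 of 13097 did not overlap. That is a larger share than the list's. BID, the BH3-only protein that caspase-8 cleaves to carry a death signal to mitochondria, fell 1.92-fold. It read 8.70, 8.79 and 8.66 on untreated and 7.75, 7.82 and 7.74 on treated arrays, nearly 1 unit apart with little spread (difference -0.94 ± 0.07, SE, adjusted p = 2.3e-04). Its 3 probe sets differed by -0.86 to -1.10 and all were called when tested singly. MAP3K5, also known as ASK1, a kinase upstream of JNK and p38, fell 1.73-fold. It read 6.38, 6.39 and 6.61 against 5.39, 5.73 and 5.88 (difference -0.79 ± 0.13, SE, adjusted p = 0.0098), and its second probe set differed by -0.69. The BID and MAP3K5 calls held without each single array and without both arrays numbered 1.

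The other called signalling genes moved by less. CASP8, the initiator caspase of death receptors, was 1.32-fold lower, with means of 7.16 ± 0.0597 and 6.76 ± 0.0806 (log2, SD, n = 3; adjusted p = 0.0176 by limma). Its other probe sets, at means of 5.28 and 2.97, differed by -0.12 and 0.29 without passing. NFKBIA, the NF-κB inhibitor IκBα, was 1.32-fold lower, IKBKB, a catalytic subunit of the IκB kinase, 1.35-fold lower, TRAP1, a mitochondrial chaperone of the HSP90 family, 1.34-fold lower and RIPK2, a kinase of the RIP family best known downstream of NOD receptors, 1.27-fold lower. CYLD, a deubiquitinase that limits NF-κB signalling, rose 1.31-fold. Its 2 next brightest probe sets differed by 0.17 and 0.01 without passing. The second probe set of NFKBIA, at a mean of 4.82, differed by -0.10 and that of RIPK2, at 4.60, by -0.25, neither passing (adjusted p = 0.73 and 0.35 among all probe sets). With probe sets averaged, NFKBIA differed by -0.25 and did not pass (adjusted p = 0.0965), and without shared-sequence probe sets it differed by -0.10 (adjusted p = 0.67). These 6 calls were close to the threshold. CASP8 did not pass once untreated array 2, untreated array 3 or treated array 3 was removed (adjusted p = 0.0747, 0.0668 and 0.0518). For NFKBIA this held for untreated array 2, untreated array 3 and treated array 2 (adjusted p = 0.0655, 0.0566 and 0.0562), and for TRAP1 for each of the 3 untreated arrays (adjusted p = 0.0578, 0.0601 and 0.0620). IKBKB did not pass after removal of untreated array 1, untreated array 2, treated array 2 or treated array 3 (adjusted p = 0.0781, 0.0862, 0.0635 and 0.0721). RIPK2 did not pass after removal of any untreated array, treated array 1 or treated array 2 (adjusted p = 0.0562, 0.0790, 0.0876, 0.0507 and 0.0790). CYLD did not pass after removal of any array but treated array 2 (adjusted p = 0.0996, 0.0837, 0.0664, 0.0754 and 0.0967). The number of called genes of this list was 4, 2 and 3 after removal of each untreated array in turn, by number, and 7, 5 and 5 after removal of each treated one. Removing the 2 arrays numbered 1 together left 2, BID and MAP3K5. CASP8, CYLD, IKBKB, NFKBIA, RIPK2 and TRAP1 did not pass in that fit (limma adjusted p = 0.0753, 0.153, 0.100, 0.0725, 0.0931 and 0.0857).

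Adaptors that bind the receptors directly were not among the called genes. FADD and TRADD, the death domain adaptors, differed by 0.04 and 0.10, and CFLAR, which encodes the caspase-8 inhibitor FLIP, by -0.02, with a 95% interval from -0.18 to 0.13. TRAF3 and TRAF6 differed by -0.02 and 0.00. The NF-κB subunit genes NFKB1, NFKB2 and RELB differed by 0.06, -0.03 and -0.01, and RELA by 0.34 (adjusted p = 0.0604). RELA was called after repeated quantile normalization, among genes above the median signal and with a trended robust variance. It was also called with the replicate number as a block and without treated array 1, and not under the other alternatives. TNFAIP3, which encodes the NF-κB feedback enzyme A20, differed by -0.05, and ADAM17, the protease that sheds TNF, by -0.01. RIPK1, TRAF2, BIRC3 and SPATA2 were on the list and not analysed here.

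**Figure D5:**
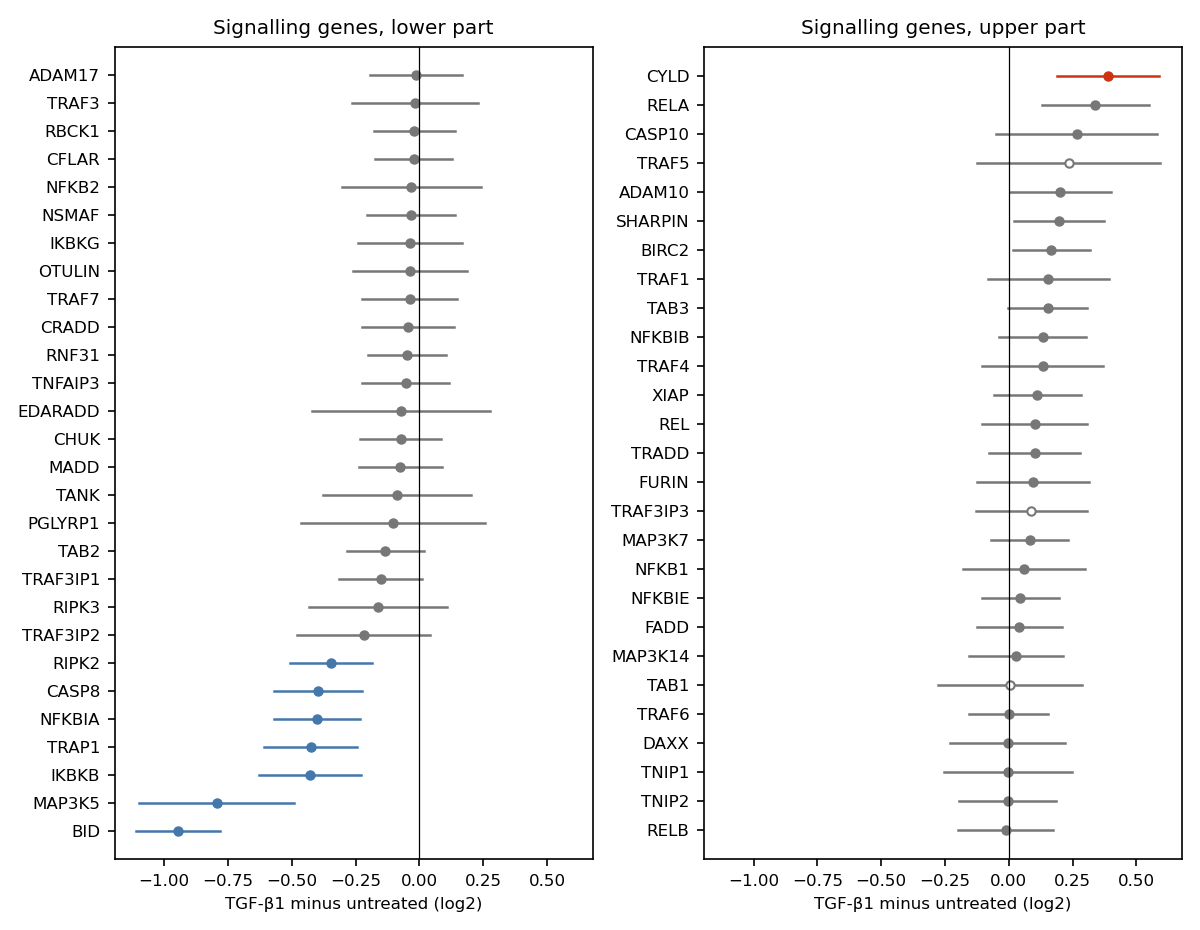
Difference with TGF-β1 (log2, horizontal axis) for the 55 measured signalling genes, sorted and split over 2 panels, with 95% intervals as bars; blue marks called falls, red the called rise and open points dim probe sets. BID at -0.94 and MAP3K5 at -0.79 lie apart from the other called genes, which run from -0.43 (IKBKB) to 0.39 (CYLD).

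Of the markers of other cell types, 2 of 8 fibroblast genes were called, COL1A1 at 1.58 and FAP at 0.89 higher (log2), and the mean over that list was 4.53 to 4.76 on untreated and 4.999 to 5.10 on treated arrays. In 7 of the 8 the difference was above 0, with a median of 0.28 against -0.0027 over all genes. COL1A2, TCF21 and DCN differed by 0.39, 0.28 and 0.27 without passing (adjusted p = 0.25, 0.21 and 0.35), and PDGFRB, at a mean signal of 4.36, by -0.14. Of the 8 genes, 4 lay above the median signal: COL1A1, FAP, DCN and PDGFRB, at means of 8.58, 7.66, 4.84 and 4.36. The other 4, COL1A2, PDGFRA, TCF21 and LUM, lay below it, at 3.88, 3.59, 3.22 and 2.49. Of 6 endothelial genes, KDR was called higher and CDH5 lower, both dim at 2.82 and 3.11, and the list mean was 3.99 to 4.03 on untreated and 3.97 to 4.08 on treated arrays. Every array was labelled as the 1 cell line CaSki, so these are signals of genes in that culture and not a measure of other cell types. Their relation to the TNFRSF19 value was not tested.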

How the data were processed

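Gene expression was measured on 6 Affymetrix arrays, 3 untreated and 3 treated, grouped by their titles. The deposited values are log2 signals that the authors made with Affymetrix Expression Console and RMA, per the submitters' processing notes. RMA corrects background, equalises arrays and combines probes, and compresses differences of dim probe sets. Their versions are not stated in the labels, and the log2 scale was read from the values (1.57 to 14.5, array medians 4.15 to 4.18). Arrays have no read depth, and their number limits the precision.

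Of 54675 probe sets, 62 were controls, 41091 had 1 gene symbol, 1801 several and 11721 none. Symbols came from the platform annotation, and an update through RefSeq gene numbers (41037 matched) changed 0. Promoter sequences are RefSeq's. Treated and untreated arrays were fitted with lmFit and eBayes of limma 3.58.1 (R 4.3.3) over 19775 genes, with neither a filter nor a covariate, and genes were called at a Benjamini-Hochberg adjusted p below 0.05. The fit was tested on simulated data.

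Named in full were called members, members whose groups did not overlap and the 10 with the highest signal, and the called signalling genes. TNFRSF9 was added after its values were seen. The members, lists and rules were chosen with earlier results of these data known. Of the alternatives, 9 were fixed with the design (repeated quantile normalization, median centring, a signal filter, probe set averages, exclusion of shared-sequence probe sets, a trended robust variance, a replicate block, leaving out single arrays and single probe set tests), and removal of both arrays numbered 1 was chosen after seeing the data.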

Additional observations from a re-analysis of the deposited data

How the results depend on the processing

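TNFRSF19 was called and positive under all alternatives run except the removal of both arrays numbered 1 (difference 1.04, adjusted p = 0.0711). Its difference was smallest, 0.29, with probe sets averaged. The count of called members, 1 as reported, was 2 above the median signal and 2 with a trended robust variance (TNFRSF12A as the second), 0 without both arrays numbered 1, and 1 to 2 without single arrays. The signalling count, 8 as reported, was 3 with probe sets averaged, 4 without shared-sequence probe sets, 2 without both arrays numbered 1 and 2 to 7 without single arrays, which also leaves fewer samples. Over all genes the count, 1680 as reported, was 2629 with a trended robust variance, 627 without both arrays numbered 1 and 768 to 1326 without single arrays.

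Signs turned for LTB, TNFRSF1A, LTBR, FAS and TNFRSF10B, none of them called. LTB, at -0.01 as reported, was 0.012 after repeated quantile normalization, 0.048 with probe sets averaged, 0.11 without shared-sequence probe sets, 0.0099 without both arrays numbered 1 and -0.077 to 0.070 without single arrays. TNFRSF1A was 0.012 after repeated quantile normalization and -0.063 to 0.0095 without single arrays. LTBR, at -0.17 as reported, was 0.0027 with probe sets averaged, FAS was -0.019 without both arrays numbered 1, and TNFRSF10B was -0.0097 to 0.055 without single arrays. CASP8, called lower as reported, was 0.29 without shared-sequence probe sets (adjusted p = 0.23), where a probe set at a mean of 2.97 stands for the gene. TNFRSF1B is below the median signal and has no value under that filter.

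After subtracting group means, the correlation between same-numbered arrays was 0.18, 0.039 and 0.081. Of these, 2 lay below 0.1, so the numbers were not taken as pairs. Untreated array 3 with treated array 2 and untreated array 2 with treated array 3 gave 0.064 and 0.040. The arrays numbered 1, which also shared the high 3′ over 5′ signal, correlated at -0.071 to -0.13 with arrays of other numbers. Deviations from a group mean sum to 0 within the group. These negative values therefore follow largely from the 0.18 and are no separate observation. With the replicate number as a block, TNFRSF19 stayed called (adjusted p = 0.0062), the member count was 1, the signalling count 8 and the count over all genes 1280. CYLD was not called with the block (adjusted p = 0.0558), and RELA was.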
